A study of Mus musculus with 2 samples.

Results

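The MCM helicase is a ring of 6 related proteins, Mcm2 to Mcm7, that is loaded around DNA at replication origins before S phase and unwinds the strands once S phase begins. Cdc6 and Cdt1 load the ring, Cdc45 joins it to form the active helicase, and Pcna is the sliding clamp that holds polymerases on the template. These genes are transcribed in dividing cells, which the embryonic lung has in abundance, and in mammals they are textbook targets of the E2F transcription factors. The account here takes the 10 genes Mcm2, Mcm3, Mcm4, Mcm5, Mcm6, Mcm7, Cdc6, Cdt1, Cdc45 and Pcna, of 21884 protein-coding genes with a unique symbol, and every CTCF site in each gene or within 20 kb of it. A site is the summit of a peak in the authors' optimal list, the one thresholded by the irreproducible discovery rate (IDR), and 33 of 54943 sites on the assembled chromosomes met this rule.

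CTCF is a DNA-binding protein with zinc fingers, found at insulators and loop anchors. Its sites were mapped by ChIP-seq (sequencing of DNA recovered with an antibody to the protein) in pulverised lungs of male and female B6NCrl mouse embryos at day 14.5, pooled over several dissections. There were 2 samples, replicates 1 and 2, in 1 group with no second condition and therefore no test between groups. They share a biosample, a donor record and a control file, and differences between them may be of technical origin alone. A peak list gives no read counts and no expression, so depth is unknown and lung markers could not be checked. All positions are on mm10 (GRCm38).

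CTCF lay in or near all 10 replication genes, and 5 of the 33 sites stood at the start of one of them. The 33 sites comprised 11 upstream of a gene, 13 inside one and 9 beyond its end. A promoter site, with its summit within 1 kb of the transcription start site (TSS), was found at 5 genes: Mcm2, Mcm4, Mcm5, Mcm7 and Cdt1. Of all protein-coding genes, 79.7% had a site in the gene or within 20 kb, and 26.6% had a promoter site. None of the 5 promoter sites held a match to the CTCF motif, against 30.5% of all sites within 1 kb of a protein-coding TSS. The sites with the motif stood farther away, as at Cdt1, where the strongest site of the set, of rank 73 in the genome, lay 16314 bp upstream.

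The sequences of the motif-bearing sites show many of the letters that CTCF is known to read. A matrix built on strong sites of the odd-numbered autosomes, with 0 of the 33 among them, had the following consensus, with the letter of highest share at each position in capitals.
Consensus of the matrix: TGGCCACCAGGGGGCGCTAG
The next lines give the match in capitals with 5 bases on each side, read on the strand of the motif, for the strong or first motif-bearing sites of 6 genes described below.
Cdt1, 16314 bp upstream (chr8:122551704-122551733, minus strand): tctgaCAGCCCCCAGAGGGCGCTGCgccat
Mcm2, 17531 bp upstream (chr6:88916312-88916341, minus strand): tgtaaTGACCACCAGAGGGCAGCAAaggat
Mcm2, 8189 bp upstream (chr6:88906947-88906976, minus strand): gccgtTGACCACAAGATGGCAGTAGaaaga
Mcm2, 5015 bp into the gene (chr6:88893747-88893776, minus strand): atataCCACCAGCAGGTGGCGCTGTggatg
Mcm7, 8713 bp past the end (chr5:138155880-138155909, minus strand): caaccTGGCCAGCAAGTGGCGCAGTctggt
Cdc6, 2046 bp into the gene (chr11:98909832-98909861, minus strand): agatgTGGCCACCAGATGGCACCCCtgaat
Cdc45, 12959 bp into the gene (chr16:18799004-18799033, minus strand): tgggcTTCCCACTGGGTGGCACTTTgtttc
Pcna, 8522 bp past the end (chr2:132240612-132240641, minus strand): tccttCTGCCACCAGGGGGCAGACCgagcc
The strong site at Mcm5 is shown beside them, with its best match in capitals, which scored 7.20 against a threshold of 10.35. It shares 13 letters with the consensus, as many as the Pcna match (score 21.85) and more than the Cdc45 match (12 letters, score 11.02). It thus falls short in the weighted score and not in the number of letters.
Mcm5, 848 bp upstream (chr8:75108712-75108741, minus strand): gctccAGCCCGGCAGGAGGTGCCAGagtgc

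**Figure D1:**
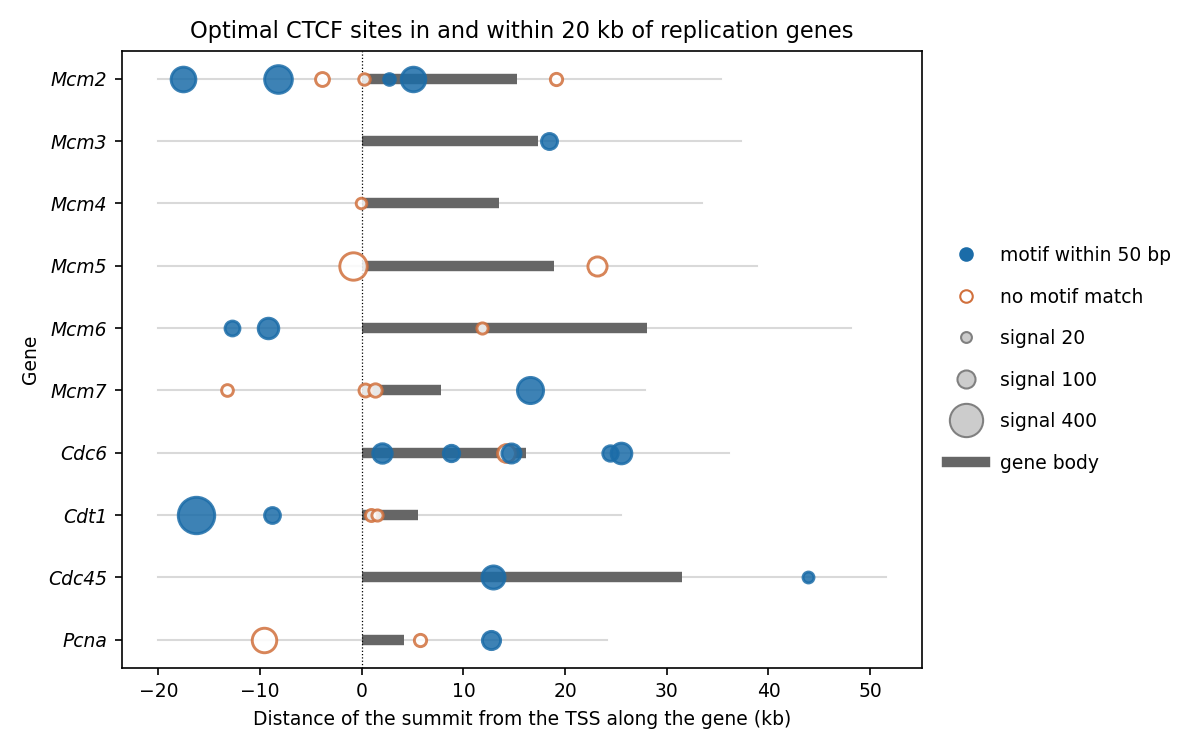
CTCF sites of the optimal list along each gene; the x axis gives the distance of the summit from the TSS in kb, positive into the gene, the grey bar is the gene body and the thin line the 20 kb on each side. The area of a circle grows with the signal; filled circles hold a motif within 50 bp of the summit and open ones do not. Promoter sites are open circles at 5 genes, and the largest circle is the site 16314 bp upstream of Cdt1.

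A site lay in or within 20 kb of 10 of 10 genes, against 79.7% of all protein-coding genes. The number per gene ran from 1 to 7 with a median of 3, which is also the median of all protein-coding genes. Among the 11161 protein-coding genes whose windows were as long as those of the set (44.2 to 71.5 kb), the median was 2. At least 3 sites were listed for 6 of the 10 genes, against 52.6% of all. Per 100 kb of window the median was 5.6 sites, against 3.6 for all protein-coding genes. The strongest 10000 sites of the list took in 7 of the 33, against 18.2% of all sites, and 5 of the 33 summits were in soft-masked (repeat) sequence, against 19.6%.

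Promoter sites were present at 5 of 10 genes (50%, 95% Wilson interval 23.7 to 76.3), against 26.6% of all protein-coding genes, a share inside that interval. Intervals here cover counting error only. Mcm2, Mcm4, Mcm5 and Mcm7, 4 of the 6 helicase subunits, had one, as did the loader Cdt1, while Mcm3, Mcm6, Cdc6, Cdc45 and Pcna had none. In the strongest peaks of replicate 2 alone, 3 genes kept a promoter site (Mcm5, Mcm7 and Cdt1; 26.9% of all genes), and in those of replicate 1 there were 4 (Mcm2, Mcm5, Mcm7 and Cdt1; 27.3%). The conservative list lacked the Mcm2 site and held the other 4 (25.4% of all genes), while the strongest pooled peaks lacked the Mcm4 site (26.5%). Mcm2, Mcm4 and Mcm7 had a site within 500 bp (20% of all genes), the same 5 genes had one within 2 kb (33.1%), and Cdc6 joined them within 5 kb (44.8%). With every annotated transcript start in place of 1 TSS per gene, the 5 genes were again the same (34.4% of all genes). No gene had 2 or more sites within 1 kb, against 3.65% of all. Cdt1, at 953 bp, was just inside the 1 kb limit, and a second Mcm7 site, at 1295 bp, just outside.

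Mcm5 had the strongest promoter site of the 5. Its peak, at chromosome 8, 75108611 to 75108837, had its summit 848 bp upstream of the TSS and a signal of 263.4, the peak caller's own value, at percentile 90.8 of the optimal list. Replicate 1 had 144.6 and replicate 2 had 117.0, at the same base and at ranks 5057 and 5282 of 300000. Both replicates thus placed it high. It was the only promoter site of the 10 genes among the strongest 10000, which reach 4.27% of protein-coding promoters. No window within 50 bp passed the motif threshold, although 88.6% of the strongest 10% of all sites held the motif. The site was called with the motif under 1 of 3 other motif settings, that of consensus letters. No other gene had its start within 1 kb.

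The other 4 promoter sites were weak, at percentiles 5.56 to 34.7 of the optimal list. All 6059 sites within 1 kb of a protein-coding TSS had a median percentile of 43, with quartiles of 19.8 and 69.4. Mcm7 (34.7) and Cdt1 (24.8) were between these quartiles, and Mcm2 (18.4) and Mcm4 (5.56) were below them. Mcm7, whose gene record begins at 138172422 on chromosome 5, had a site at 138171987 to 138172276, 290 bp into its exon 1, with a signal of 39.6. Replicate 1 gave 23.5 and replicate 2 gave 15.3, and both summits fell on the same base. The start of Ap4m1, a subunit of an adaptor complex of vesicle transport, lies 420 bp away on the opposite strand, inside Mcm7, and was nearer to the site, at 130 bp. A second site stood 1295 bp into Mcm7, in intron 1, with a signal of 43.4, and 31.6 in replicate 1 against 12.3 in replicate 2. RefSeq begins Mcm7 at places 539 and 1156 bp farther in, and from either of them both sites lay within 1 kb. Mcm7 also hosts the microRNA genes Mir106b, Mir93 and Mir25, whose starts lie 6604 to 7018 bp from its TSS, and 0 sites were within 1 kb of any of these.

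Cdt1 had its promoter site 953 bp into the gene, in intron 1, at chromosome 8, 122568823 to 122569112. The signal was 30.4, with 18.5 in replicate 1 and 11.7 in replicate 2. Another weak site followed 1520 bp from the TSS in intron 3, with a signal of 23.4, and 13.4 in replicate 1 and 10.7 in replicate 2. Cdt1 therefore had a pair of weak sites just inside the gene and a pair with the motif upstream.

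Mcm2 had its promoter site 246 bp into the gene, in intron 1, at chromosome 6, 88898389 to 88898678. Its signal was 26.0, with 21.5 in replicate 1 and 8.36 in replicate 2, where it ranked 56925 and so fell outside the strongest 54953 peaks. The conservative list had no summit within 1 kb of the Mcm2 TSS.

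Mcm4 had the weakest site of all 33, at chromosome 16, 15637363 to 15637652, with a signal of 17.8 at percentile 5.56. The summit lay 108 bp upstream of Mcm4, between its TSS and that of Prkdc, the catalytic subunit of a DNA repair kinase, which is transcribed away from it and starts 466 bp off. Replicate 1 had 8.60 and replicate 2 had 7.95, at ranks 64986 and 58976, so neither replicate had it among its strongest 54953 peaks. It is listed in both thresholded lists.

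**Figure D2:**
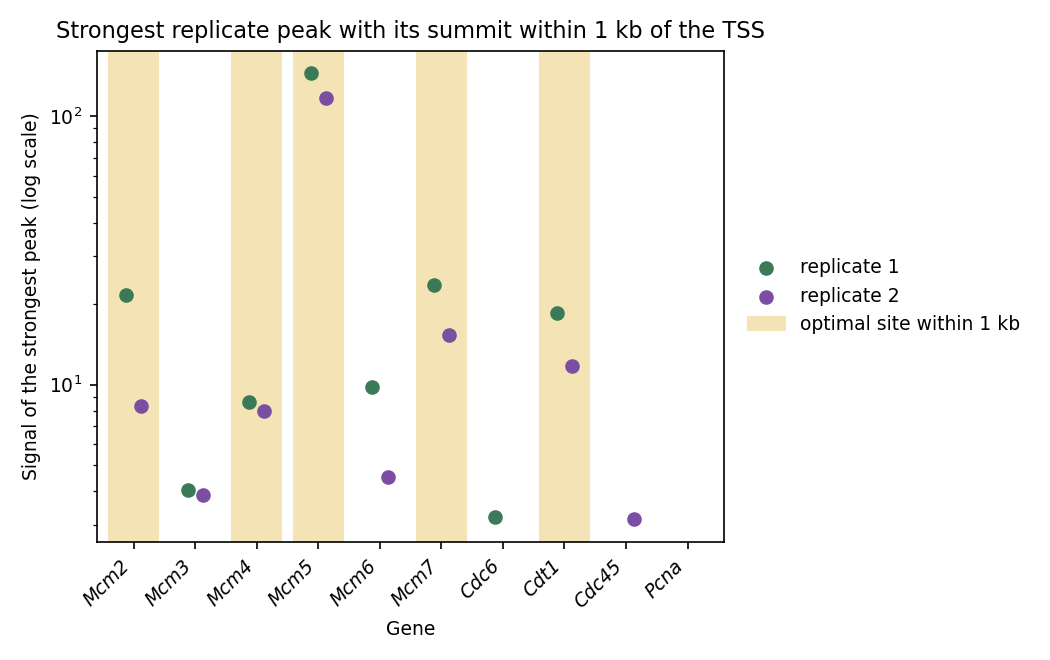
Signal of the strongest peak with its summit within 1 kb of the TSS of each gene, in replicate 1 and in replicate 2 (log scale, unscaled between replicates; no point means that the list has no such peak). Shaded genes have an optimal site there; Mcm5 stands at 144.6 and 117.0, and all other points are at 23.5 or below.

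The 5 genes without a promoter site were not all empty below the threshold. Each replicate list holds 300000 peaks, and a summit within 1 kb of the TSS was in both lists for 7 of 10 genes, against 50.4% of all protein-coding genes. Replicate 1 had one for 8 genes (60.5% of all), replicate 2 for 8 (58.7%) and the pooled list for 9 (62.0%). Mcm6 had a peak of 9.80 in replicate 1 and 4.52 in replicate 2, about 350 bp into the gene. Mcm3 had 4.06 in replicate 1 and 3.88 in replicate 2, on opposite sides of its TSS. In replicate 2 these values are below those of all 5 promoter sites, whereas in replicate 1 the Mcm6 peak is above that of Mcm4 (8.60). Cdc6 had a peak in replicate 1 alone (3.20) and Cdc45 in replicate 2 alone (3.15), where the start of Ufd1, a gene of protein degradation, lies 208 bp away inside Cdc45. No list had a summit within 1 kb of the Pcna TSS, 43 bp from which an antisense transcript, AV099323, begins.

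Mcm2 was the richest in sites, with 7 in a window of 55.3 kb. Beyond the promoter site, those at 17531 and 8189 bp upstream had signals of 209.2 and 269.7. One in intron 2, 5015 bp from the TSS, had 207.0. Replicate 1 gave 98.7, 149.5 and 113.3 at these 3, and replicate 2 gave 105.1, 118.6 and 94.4, so they were high in both. Another motif-bearing site in intron 2, 2658 bp from the TSS, was weak (27.8) and in soft-masked, repeat-derived sequence. All 4 motifs of Mcm2 pointed along the gene. The site 3882 bp upstream had 49.1 and stood 411 bp into Tpra1, the neighbour transcribed away from Mcm2. The last, 3837 bp past the end, had 32.8 and no motif.

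Mcm6 had 2 motif-bearing sites upstream and 1 site without a motif inside. The upstream ones, 9241 and 12703 bp from the TSS, had signals of 137.6 and 60 and lay in introns of Dars, a gene of a tRNA synthetase. The nearer one had 68.4 in replicate 1 and 69.1 in replicate 2, and the farther one 34.3 and 23.6. In intron 7 a site with 23.3 had 10.7 in replicate 1, and replicate 2 had no summit within 50 bp of it.

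Mcm3, Mcm4 and Mcm5 were sparse. Mcm3 had a single site, 1048 bp past its end, with a signal of 73.6, a motif, and 40.3 in replicate 1 against 33.6 in replicate 2. Mcm5 had, besides its promoter site, one 4232 bp past its end with 115.5 and no motif, which had 62.3 in replicate 1 and 49.9 in replicate 2. No motif match was thus found at either Mcm5 site or at the Mcm4 site, whereas 8 of 10 genes had at least 1 motif-bearing site in the window, against 71.2% of all protein-coding genes. At Mcm7 a motif-bearing site with 237.6 stood 8713 bp past the end, 126 bp upstream of the TSS of the zinc finger gene Zfp113. It had 131.9 in replicate 1 and 105.3 in replicate 2. A weak one of 27.8 without a motif lay 13286 bp upstream of Mcm7, in an intron of Taf6, a gene of the basal transcription machinery.

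The loader genes differed in layout. Cdc6 carried 4 sites inside the gene and 2 past its end, 5 of the 6 with a motif, and signals between 66.3 and 139.8. Those in introns 2 and 8 had 120.5 and 78.2, with 67.4 and 52.4 in replicate 1 and 54.1 and 25.9 in replicate 2. In the 3' UTR of a longer Cdc6 transcript a site of 96.6 without a motif and one of 114.6 with it lay 14184 and 14687 bp from the TSS. Both were nearer to the start of Rara, a retinoic acid receptor gene, than to that of Cdc6. The sites past the end, of 66.3 and 139.8, lay in introns of Rara.

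Cdt1 had the strongest site of the 33. Its signal of 485.3 at chromosome 8, 122551529 to 122551877, stood at percentile 99.9, with 254.9 in replicate 1 and 230.7 in replicate 2, at ranks 117 and 50. The summit was 372 bp upstream of the TSS of Piezo1, the gene of a mechanically gated ion channel, so the promoter that it occupies is not that of Cdt1. A second motif-bearing site 8780 bp upstream had a signal of 71.6, and 34.6 in each replicate.

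Cdc45 had a site in intron 8 with a signal of 179.7 and a motif, and 90 in replicate 1 against 85.7 in replicate 2. The other, 12325 bp past its end, had 20.9. Replicate 2 had 13.8 there, and replicate 1 had no summit within 50 bp. Both Cdc45 motifs pointed along the gene.

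Pcna had 3 sites and none inside the gene. The strongest, 9642 bp upstream with a signal of 205.4, stood 192 bp upstream of Cds2, a phospholipid synthesis gene, and held no motif match. It had 124.8 in replicate 1 and 79.7 in replicate 2. A weak site of 32.8 lay 1576 bp past the end of Pcna, 221 bp into Tmem230, with 10.9 in replicate 1 and 22.8 in replicate 2. The third, in an intron of Tmem230, had 102.0 and a motif, with 60.1 in replicate 1 and 41.6 in replicate 2.

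A promoter of some annotated gene held 11 of the 33 sites (33.3%, Wilson interval 19.8 to 50.4), against 14.7% of all sites. Of the 11, 5 were the promoter sites above. With 1 TSS per gene, 6 belonged to another gene alone: Tpra1, Ap4m1, Zfp113, Piezo1, Cds2 and Tmem230. The Ap4m1 one is the second Mcm7 site, which was also within 1 kb of either RefSeq start of Mcm7. Introns held 15 sites (45.5%, against 43.1% of all), sequence between genes 5 (15.2%, against 35.2%) and 3' UTRs 2 (6.06%, against 1.80%). Coding exons, 5' UTRs and non-coding exons held 0, against 2.51%, 0.511% and 2.23% of all sites. The sites in or within 20 kb of any protein-coding gene numbered 43411, from windows drawn by the same rule but for genes of every length. Their shares were 17.2% in promoters, 51.2% in introns and 23.1% between genes. For introns and between genes these shares are inside the Wilson intervals of the 33 sites (29.8 to 62% and 6.65 to 30.9%). The promoter share of 17.2% is below the interval of the 33 sites (19.8 to 50.4%). Windows of the set ran from 44.2 to 71.5 kb, and those of all protein-coding genes had quartiles of 46.5 and 85.1 kb. The shares were not taken for windows of matching length, so the part of window length in them was not tested. The nearest TSS was that of the replication gene itself for 13 sites and of another gene for 20.

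The motif, a match within 50 bp of the summit, was found at 18 of 33 sites (54.5%, Wilson interval 38.0 to 70.2), against 61.7% of all optimal sites. At promoter sites it was 0 of 5, which allows up to 43.4% by the Wilson interval, against 30.5% of all sites within 1 kb of a protein-coding TSS. Away from the 5 promoters it was 18 of 28, against 65.5% of all such sites. Counted by gene, 0 of 10 had a motif-bearing promoter site (upper Wilson limit 27.8%), against 8.73% of all protein-coding genes. Sites with the motif had signals from 20.9 to 485.3 with a median of 118, against a median of 95 for all motif-bearing sites. Those without it had 17.8 to 263.4 with a median of 32.8, against 37.0 for all such sites. Above the median signal of the list 15 of 19 sites held the motif (77.3% of all sites there), and below it 3 of 14 (46.0% of all). Of the 18 motifs 12 pointed along the gene and 6 against it. Over all pairs of a motif-bearing site and a protein-coding gene in or within 20 kb of which it lies, 51.1% pointed along the gene.

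The number of CpG, a dinucleotide frequent in the unmethylated islands at many promoters, varied widely among the sites without a motif. Of the 15, 7 had 2 to 4 CpG in 201 bases centred on the summit and 8 had 10 to 17. Their median was 10, against 3 for all sites without the motif. At sites with it the median was 2.5, against 2 in the genome. At the 5 promoter sites the median was 13, against 12 for all sites within 1 kb of a protein-coding TSS. A count of 10 or more, a limit chosen after the values were seen, was reached by 9 of 33 sites, against 11.1% of all. Of these 9, 8 lacked the motif (69.0% of all such sites) and 8 lay in an annotated promoter (66.5%), and both background shares are inside the Wilson interval of 56.5 to 98%. The exceptions were the Piezo1 site upstream of Cdt1, which held the motif, and the Cdc6 site in the 3' UTR. Mcm4 had the highest number, 17. Of the 15 sites without the motif 9 were in a promoter, against 24.0% of all such sites, and of the 18 with it 2 were, against 8.86%. The part of base composition in the motif and signal values was not tested.

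**Figure D3:**
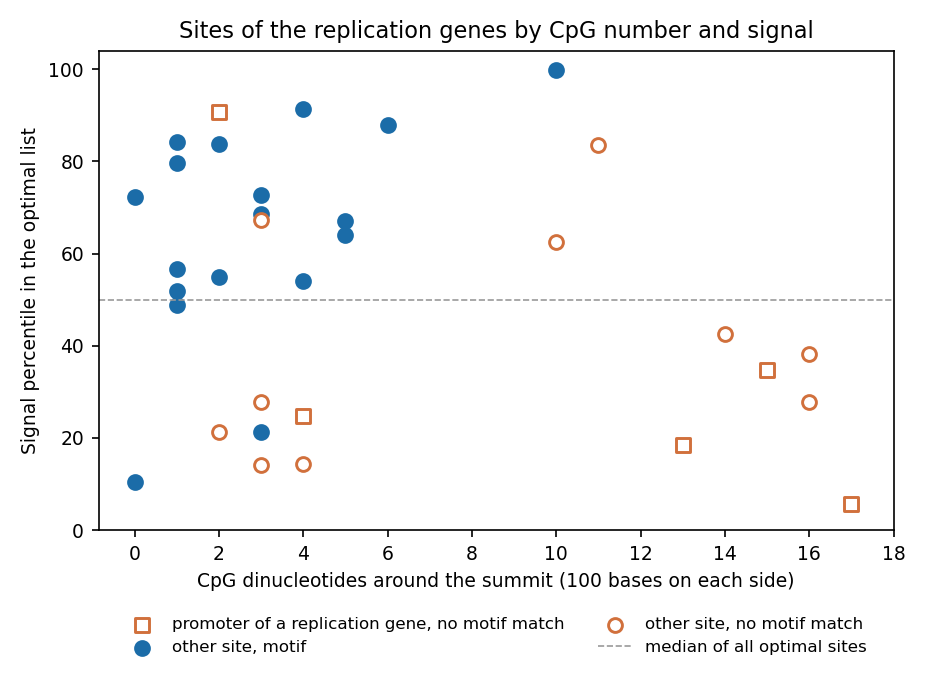
Number of CpG dinucleotides in 201 bases around the summit (x axis) and signal percentile within the optimal list (y axis) for the 33 sites, by promoter and motif; the dashed line is the median of all optimal sites. The sites with 13 or more CpG, a limit chosen after the values were seen, all lack the motif and lie below that median. Those with 10 or 11 CpG lie above it: the Piezo1 site upstream of Cdt1, the Cds2 site upstream of Pcna and a Cdc6 3' UTR site. The Piezo1 site holds the motif. Over all optimal sites with 10 or more CpG, 69.0% lack the motif.

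The replicates listed nearly all of the sites. A summit of each replicate list lay within 50 bp of 31 of the 33, against 93.4% of all optimal sites, and 28 were among the strongest 54953 peaks of both, against 81.0%. The signal of replicate 1 over that of replicate 2 had a median of 1.25 over the 31, against 1.23 over all 51304 such sites, and it was above 1 for 24 of the 31. At 5 of the 31 (16.1%) it fell outside 0.735 to 2.16, the range that holds the middle 90% of all sites, and 3 of these belonged to Mcm2. The Tpra1 promoter site had 36.5 in replicate 1 and 11.2 in replicate 2, a ratio of 3.27, the Mcm2 promoter site had 2.57, and the weak site in intron 2, with 6.18 in replicate 1 and 19.6 in replicate 2, had 0.315. The other 2 were the Mcm7 intron 1 site (2.56) and the Tmem230 site near Pcna (0.480). All 5 had a signal below 50 in the optimal list, which is thresholded for reproducibility, so the likeness of the replicates is in part built in.

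**Figure D4:**
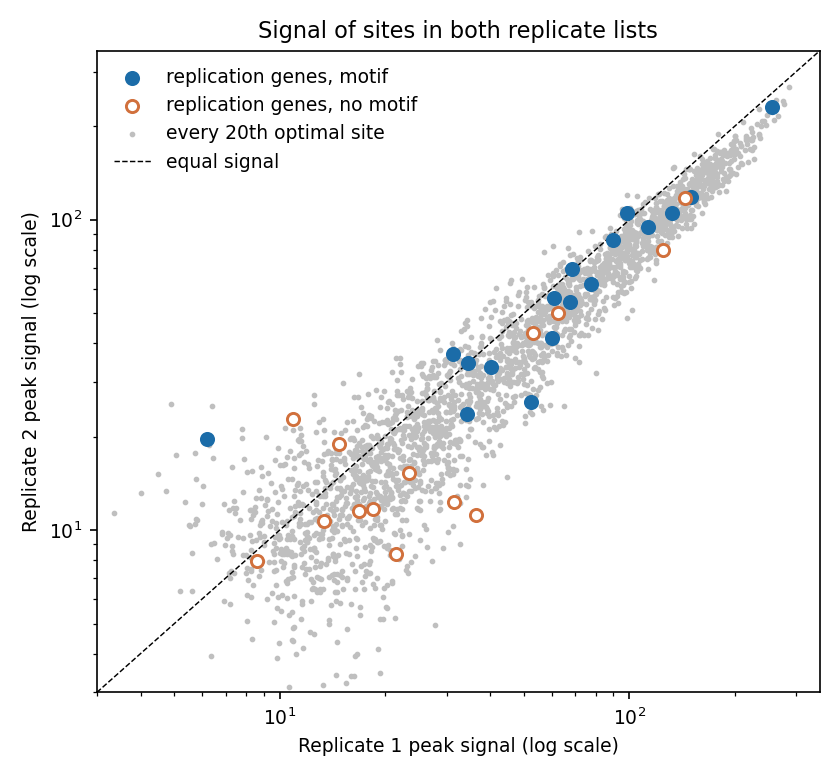
Signal of the nearest replicate 1 summit (x axis) and replicate 2 summit (y axis) within 50 bp, both on log scales, for the 31 sites found in both lists and, in grey, for every 20th optimal site. The strong sites follow the grey band closely, and the point farthest above it is the weak Mcm2 intron 2 site with 6.18 in replicate 1 and 19.6 in replicate 2.

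The conservative list held 28 of the 33 sites (84.8%, against 87.5% of all). The 5 that it lacked were the Mcm2 promoter, intron 2 (the weak one) and Tpra1 sites, the far Cdc45 site and the Tmem230 site near Pcna. Peaks of 290 bp, the commonest width, made up 18 of the 33 (61.0% of all). In nearly all such entries of the list, 33496 of 33515, the summit is the midpoint of the peak, so its position is only as fine as that width allows. Of the 18 sites of this width 7 held the motif (49.5% of all sites of that width), and of the 15 of another width 11 did (80.7%).

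The nearest motif-bearing sites on both sides of a gene, at any distance, enclosed a span of 35.1 kb (Pcna) to 281 kb (Mcm4), with a median of 67.5 kb, against 114 kb for all protein-coding genes. A convergent pair has its motifs facing each other, the arrangement known at loop anchors. Mcm5 and Cdc6 were enclosed by such pairs, 2 of 10 genes against 27.9% of all. The pair around Mcm5 was strong, with 389.4 at 37791 bp on 1 side and 273.9 at 89740 bp on the other. Divergent pairs enclosed Mcm4, Mcm6, Mcm7, Cdt1 and Pcna (25.3% of all genes), and tandem pairs Mcm2, Mcm3 and Cdc45 (46.8%). These orientations were taken under the main motif setting alone. The flanking site past the end of Cdc6 (66.3) was called with the motif under 1 of 3 other settings. The same held for a flanking site of Mcm6 (137.6) and of Cdc45 (20.9). The next site past the end of Cdc6 (139.8) has its motif on the opposite strand to that of 66.3.

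The promoters of 6 of the genes hold words of the E2F type. In the stretch from 250 bases before to 50 after a RefSeq start (GRCm38.p6), the words TTTGGCGC, TTTGCCGC, TTTCGCGC and TTTCCCGC were searched on both strands, and words on opposite strands can overlap. RefSeq promoters were matched for 9 of the 10 genes, all but Mcm4. By gene, a word was present for 6 of the 9 (Mcm3, Mcm5, Mcm6, Mcm7, Cdc6 and Cdt1), against 2.60% of 27025 genes. By promoter it was 6 of 10, Mcm7 having a second promoter without one, against 2.26% of 32851. Mcm2, Cdc45 and Pcna had none. The CCAAT box, CCAAT on either strand, was present for 7 of 9 genes, against 41.1%, and in 8 of 10 promoters, against 37.4%. A pair of examples follows, with the word in capitals.
Mcm5, 153 bp before the start (chr8:75109348-75109371, plus strand): ccaagaacTTTCGCGCcaaaacgt
Cdt1, 32 bp after the start (chr8:122568039-122568062, plus strand): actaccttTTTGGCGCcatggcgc
An optimal CTCF summit fell in this stretch for 1 of the 10 promoters, at Mcm7, against 8.01% of all promoters. A word is a description of the letters and not a sign that E2F was bound.

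A wider list of 55 DNA replication genes, chosen with results of these data known, was described in the same way. A promoter site was found at 22 of the 55 (40.0%, Wilson interval 28.1 to 53.2), against 26.6% of all protein-coding genes. Taking the strongest promoter site of each of these 22 genes, 4 held the motif. Of all sites within 1 kb of a protein-coding TSS, 30.5% did. The strongest was at Gins4, a subunit of the GINS complex that joins Cdc45 and the MCM ring, with a signal of 498.7 and rank 50, 270.2 in replicate 1 and 229.3 in replicate 2, and a motif. Next came the polymerase subunit gene Pold1 (272.7, no motif), the fork protection gene Timeless (232.9, motif), the clamp loader gene Rfc3 (216.0, no motif) and Rrm2, of ribonucleotide reductase (214.5, motif). By complex, promoter sites were found at 3 of 5 clamp loader genes, 3 of 5 of nucleotide supply, 4 of 10 of helicase activation, 3 of 12 DNA polymerase and primase genes and 1 of 6 of the origin recognition complex. They were also found at 2 of 3 genes of licensing control, 2 of 3 other MCM-named genes, 2 of 4 of Okazaki fragment processing, 1 of 3 of replication protein A and 1 of 4 of fork protection. The intervals of these small groups overlap.

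**Figure D5:**
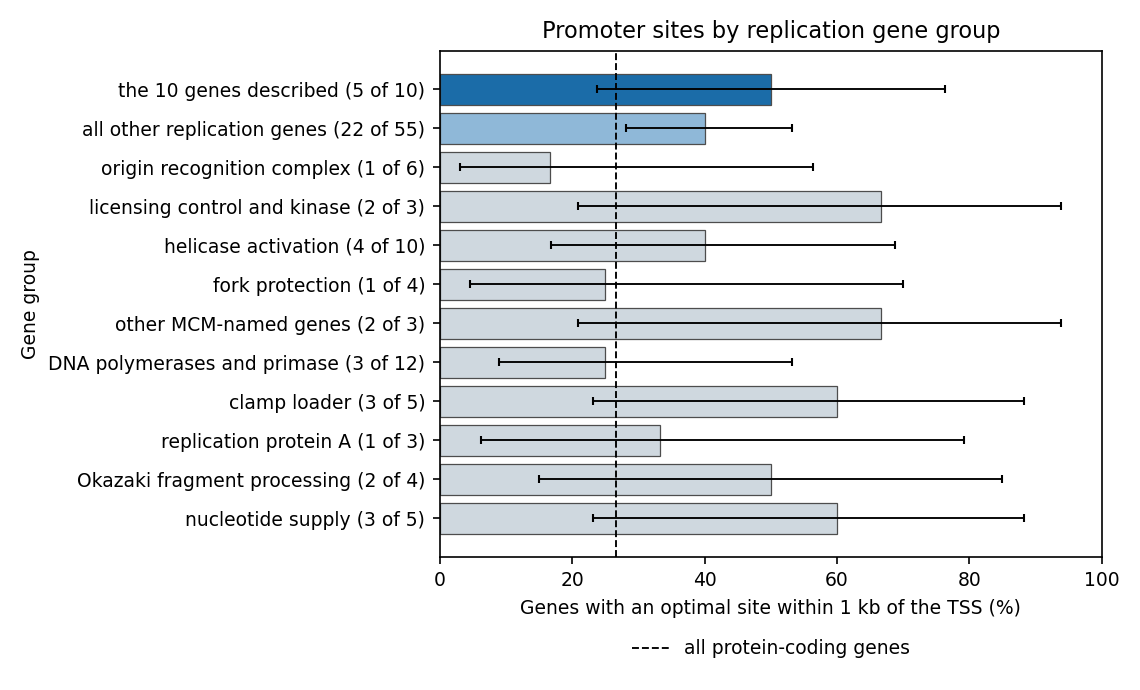
Share of genes with an optimal site within 1 kb of the TSS, for the 10 genes, the 55 other replication genes and their groups; bars start at 0, error bars are 95% Wilson intervals, and the dashed line marks all protein-coding genes at 26.6%. The interval of the 10 genes takes in that line, and the interval of the 55 begins at 28.1%. Both lists were chosen with results of these data known, and the intervals cover counting error only, so they are no test against that line.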

How the data were processed

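CTCF peaks came from 2 samples of 1 group as 5 deposited narrowPeak lists on mm10: replicate 1, replicate 2, pooled reads, and the optimal and conservative IDR lists. The deposited README traces each replicate list to its own alignments plus 1 control file used for both, and each IDR list to these and the pooled one. For aligner, peak caller and IDR settings nothing is stated: they were not given in the sources used here. Column 7, the signal, was deposited as the peak caller gave it and is not scaled between lists, so percentiles were taken within a list. Of the optimal entries on assembled chromosomes, 54935 of 54943 carry the signal of the same pooled peak, so that value is from both samples together. The summit was the peak start plus the deposited offset.

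Genes were those of GENCODE M21, with 1 TSS for each. The sequence was GRCm38 patch 6, whose chromosomes are those of mm10, and promoters were those of RefSeq on the same build. The motif matrix, 20 bases wide, was built in 15 rounds from a 9-base word enriched at the strongest 3000 sites on odd-numbered autosomes, dropping the lowest-scoring 30% each time. The score needed was one that 1% of windows moved by 1 kb reach. A replicate peak matched a site when its summit lay within 50 bp. Motif scan and window counts were tested on simulated data. No p-value was computed.

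The members and gene lists were chosen with earlier results of these data known. All 10 members were named with every site, and of the wider list the 5 strongest promoter sites. Alternatives were other lists, flanks, promoter windows, starts and motif settings. Software was pysam 0.24.0, matplotlib 3.10.9, scipy 1.17.1, numpy 2.4.6, pandas 2.3.3 and Python 3.11.15.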

Additional observations from a re-analysis of the deposited data

How the results depend on the processing

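Of 54 recomputed values of 6 results, 39 kept to the reported value. The limits were 1.5 times for a count, the Wilson interval for the motif share, and an SD between replicates (0.555) for the median percentile. That SD comes from 2 values alone, the medians with replicate 1 or replicate 2 left out, which are themselves among the 54. The strongest 10000 sites left 7 of the 33 sites, at 5 genes, a promoter site at 1 of the 10 genes and at 6 of the 55 wider ones, a motif share of 71.4% and a median percentile of 33.3, since that list is a shorter one. A flank of 50 kb gave 65 sites. Promoter windows of 500 bp left 3 genes (Mcm2, Mcm4 and Mcm7), and windows of 5 kb gave 38 of the wider list. Leaving out a replicate gave 3 to 4 genes with a promoter site, 33 to 35 sites, a site in or near 9 genes, and a median percentile of 54.7 to 55.5, against 54.9 in the optimal list. That percentile was 54.1 with the strongest pooled peaks, 55.8 with a 10 kb flank and 54.1 with a 50 kb flank. Consensus letters in place of the matrix, with 11 of 14 positions needed, gave 30.3% of sites with the motif. A match within 100 bp of the summit, with the score needed set anew for that window, gave 39.4%. A matrix from even-numbered autosomes gave 54.5%, as in the main setting. Of the 18 motif-bearing sites 6 kept the motif under all 3 other motif settings, and the cause was not tested. RefSeq starts, added after the data were seen and known for 9 of the genes (not Mcm4), gave a promoter site at 4 of the 9: Mcm2, Mcm5, Mcm7 and Cdt1. No paired analysis was possible because there is 1 group. Depth is unknown, so the absence of a promoter site at Mcm3, Mcm6, Cdc6, Cdc45 or Pcna is an absence at this threshold.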
